A study of Mus musculus with 24 samples.

Results

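The ERVL family, endogenous retroviruses with a leucine tRNA primer site, was represented by 111 of the 1445 repeat elements in the count table, all of them of the LTR class. Members were taken as every row whose family name was exactly ERVL, without use of any measured value. Of the 111, 8 carried MERVL or MT2 names and 103 did not. The 8 comprised 2 internal regions, MERVL-int and MERVL_2A-int, and 6 LTRs, MT2_Mm, MT2A, MT2B, MT2B1, MT2B2 and MT2C_Mm. The 103 remaining elements comprised 55 LTR-numbered, 18 MER, 10 MLT2 and 6 RMER or RLTR elements and 14 other internal regions. An element is a repeat consensus name, and its count is the sum over all genomic copies that carry it.

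MERVL is a mouse retrovirus that is transcribed in the totipotent 2-cell embryo and in the rare 2-cell-like cells of embryonic stem cell cultures. The LTR MT2_Mm flanks its youngest copies and acts as their promoter, and the other MT2 elements are related LTRs. The transcription factor Dux activates MT2 LTRs together with a set of cleavage-stage genes, and some MT2 copies serve as promoters of neighbouring host genes. Most of the other ERVL elements are old remnants shared by many mammals. Histone H3 lysine 9 (H3K9) methylation, placed on chromatin by the 6 SET-domain methyltransferases studied here, is one of the marks by which endogenous retroviruses are kept silent.

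RNA-seq of total RNA was available for 24 libraries of immortalised mouse embryonic fibroblasts, 3 for each of 8 conditions. WT was the fibroblast clone with conditional Eset1 alleles and a tamoxifen-inducible Cre recombinase, without 4-hydroxytamoxifen (4-OHT), so that it too carried the floxed alleles. *E1* was the same clone after 4-OHT had deleted Eset1. *E2* was an Eset2 knockout clone of it without 4-OHT, and *E1E2* was that clone with 4-OHT. *E1 S1S2* lacked Eset1, Suv39h1 and Suv39h2. *E1E2 G9Gl* lacked Eset1, Eset2, G9a and Glp. *6KO1* and *6KO2* lacked all 6 enzymes and were derived from the *E1 S1S2* and the *E1E2 G9Gl* lines respectively. By title, *E1 S1S2*, *E1E2 G9Gl*, *6KO1* and *6KO2* had received 4-OHT too. Except for *E2*, each comparison of a mutant with the untreated WT therefore also differs in 4-OHT. Genes other than Eset1 were disrupted by CRISPR frameshifts, each mutant line was 1 single-cell clone, and the 3 libraries per line were described as biological replicates, so that clonal differences and genotype cannot be told apart. The label field for treatment named 4-OHT for every sample, whereas the titles marked WT and *E2* as controls; the titles were followed.

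Libraries held 24736829 to 37419071 counts. ERVL elements took 0.0946% to 0.221% of all counts and 0.721% to 1.06% of repeat counts. Normalised read counts here are counts divided by library factors obtained from the gene rows. Setdb1 (Eset1) stood at 1478 to 1612 in WT and at 994 to 1092 in *E1*. It was also below WT in *E2* (1018 to 1398), where it was intact, and *E1E2* (1187 to 1267) lay within the *E2* range, so the counts do not show the deletion in that pair. Setdb2 (Eset2) was lower in *E2* and *E1E2* (238 to 317) than in WT (720 to 822), and Ehmt1 (Glp) was lower in the 3 lines without it. Suv39h2 stood above WT in *E1 S1S2* (1549 to 1850 against 929 to 1095), where it was disrupted, and below WT in *E1E2 G9Gl* (355 to 370), where it was intact by label, and in *6KO2* (475 to 556). A frameshift or a short deletion need not lower the count of a gene, so these values check the labels only in part. WT replicate 2 stood below the other WT libraries for ERVL (30234 normalised counts against 42490 and 40879) and for the short SINE repeats (892715 against 1245020 and 1203190), and results that turn on it are given with and without it. The sum of 8 fibroblast markers was high in every library (76781 to 204278), though not every single marker was. Thy1 was at most 4.14 in *E1 S1S2*, *6KO1* and *6KO2*, against 188 to 209 in WT. Pdgfra, which held 117 to 151 in WT, did not exceed 15.5 in any *E1E2 G9Gl* library or 5.87 in any *6KO1* library. It was less reduced in *6KO2* (73.4 to 81.7), and Thy1 stood above WT in *E1E2 G9Gl* (390 to 426). Of the pluripotency markers, Zfp42 was at 0 throughout and the sum of 4 genes was at most 18.1. Markers of other cell types differed between the lines, and their part in the results below was not tested. The leukocyte marker Ptprc was at 0 in WT, *E1*, *E2* and *E1 S1S2* and at most 1.11 in *E1E2*, against 45.3 to 50.5 in *E1E2 G9Gl*. *6KO1* had 14.7 to 16.5 and *6KO2* 12.2 to 28.6. Adgre1 was at 0 in every library, and Cd68 was at 466 to 527 in *6KO1* against 88.6 to 104 in WT, so that the sum of these 3 genes was 88.6 to 104 in WT and 123 to 147 in *E1E2 G9Gl*, with 481 to 544 for *6KO1* and 101 to 120 for *6KO2*. The sum of 3 endothelial markers was 6.39 to 8.52 in WT and 33.7 to 55.5 in *E1E2 G9Gl*, with 111 to 135 for *6KO1*, 66.2 to 84.6 for *6KO2* and at most 14.8 in the other lines. Of 4 epithelial markers, Krt8 alone was abundant, at 18.1 to 31.1 in WT, 88.9 to 106 in *6KO2*, 411 to 436 in *6KO1* and 111 to 297 in the other mutants. Epcam was lower in *6KO1* (0 to 3.52) than in WT (7.31 to 14.1), and it was at most 5.54 in every mutant other than *E1*. Krt18 and Cdh1 were at most 10.8 in any library. In such bulk samples, fewer cells with a transcript and less of it per cell cannot be told apart.

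ERVL transcripts were higher in the lines that lacked G9a and Glp along with the Eset enzymes, and 92 of the 111 elements had enough counts to be tested. Of the 92, *E1E2 G9Gl* had 38 above WT, *6KO1* had 25 and *6KO2* had 10. An element was called where it differed by at least 2-fold (log2 fold change of 1) with an adjusted p of at most 0.01, in edgeR's quasi-likelihood test with Benjamini-Hochberg adjustment over all 1207 tested repeat elements. Over all repeat elements, 41.3%, 32.6% and 22.5% were called higher in the same 3 comparisons, so the ERVL count was near this background in *E1E2 G9Gl* and below it in both 6KO lines. The median log2 fold change of ERVL was 0.77 in *E1E2 G9Gl*, the same as over all repeat elements. *6KO1* had 0.67 against 0.56 and *6KO2* 0.32 against 0.28. Lower calls were LTR75 and LTR75B in *E1E2 G9Gl* (2.07% of all repeat elements were lower), LTR75 in *6KO2* (2.15% lower) and no element in *6KO1*, where DESeq2 gave 0 as well and edgeR 2 at an unadjusted p below 0.05 (85 over all 1207 repeat elements). Without WT replicate 1, 1 element was lower in *E1E2 G9Gl* and none in *6KO2*, and LTR75 was likewise lost in *6KO2* without its replicate 1 or 2, and 1 of the lower calls in *E1E2 G9Gl* without its replicate 2 or 3. The 3 comparisons share the WT libraries. The filter passes an element with enough counts in the libraries of any 1 condition. Low-count elements could thus enter the 92, and the tested repeat elements as a whole, through a line in which they are high.

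The 4 lines with intact G9a and Glp gave almost no ERVL call. No ERVL element was called in *E1*, *E2* or *E1 S1S2*, where 4.64%, 4.97% and 6.46% of all repeat elements were higher. DESeq2 gave 0 in each as well, and at an unadjusted p below 0.05 in edgeR 12, 13 and 19 ERVL elements were higher and 2, 2 and 0 lower. Over all 1207 repeat elements, 211, 261 and 385 were higher at that p and 41, 74 and 67 lower. A single element, LTR16D1, was called higher in *E1E2* (background 5.55%). Its normalised counts were 28.8, 35.6 and 43.2 in WT and 73.9, 78.6 and 72.4 in *E1E2*, without overlap (log2 fold change 1.06, adjusted p 1.57e-05 in edgeR). Without WT replicate 1 its log2 fold change was 0.93 and the call was lost. The 8 MERVL and MT2 elements lay between -0.04 and 0.27 on the log2 scale in *E1*, between -0.04 and 0.31 in *E2*, between -0.05 and 0.33 in *E1E2* and between 0.02 and 0.38 in *E1 S1S2*, with 0 of 8 called in edgeR or DESeq2 and 1, 2, 3 and 4 higher at an unadjusted p below 0.05 in edgeR. At that p, 211, 261, 310 and 385 of all 1207 repeat elements were higher in the same lines. Leaving out WT replicate 1 gave 1 ERVL call in *E2* and 2 in *E1 S1S2*, leaving out *E1 S1S2* replicate 1 gave 1 there, and leaving out *E1E2* replicate 3 gave 1 lower call in *E1E2*.

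**Figure D1:**
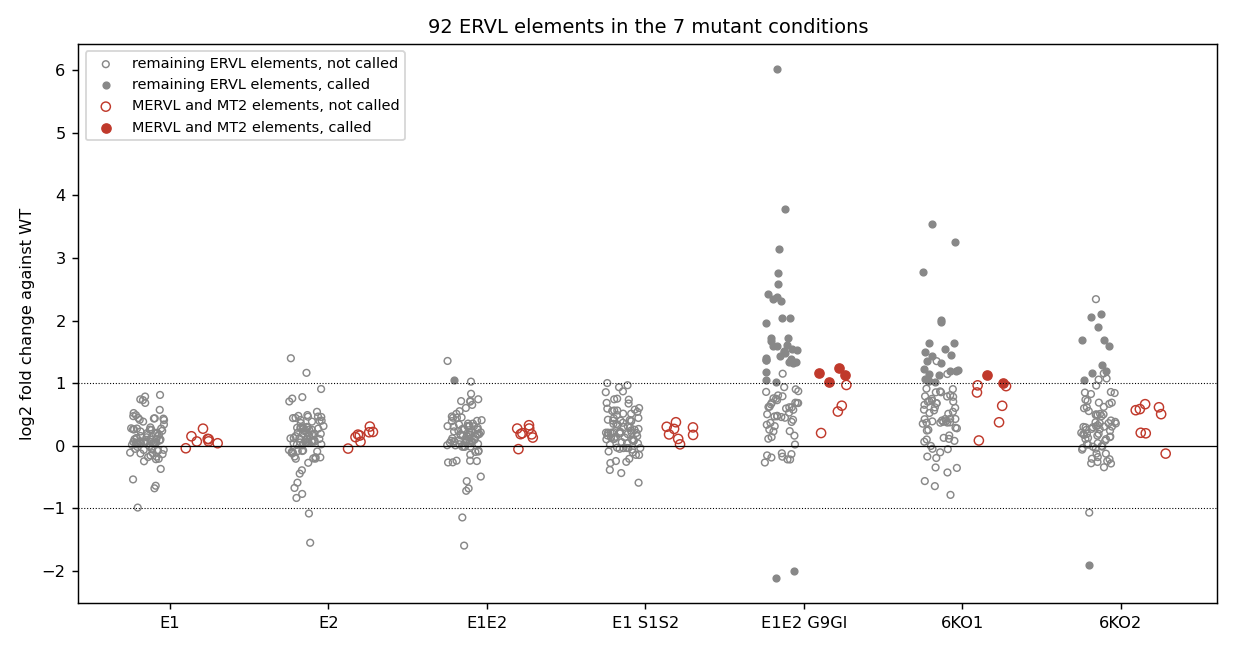
Log2 fold change against WT (vertical axis) of the 92 tested ERVL elements in each of the 7 mutant conditions, with the 8 MERVL and MT2 elements in red and the 84 remaining in grey; filled points were called and open points were not, and dotted lines mark a log2 fold change of 1 in either direction. Points lie around 0 in *E1*, *E2*, *E1E2* and *E1 S1S2* and shift upwards in the 3 conditions without G9a and Glp, with 38, 25 and 10 elements called higher.

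ERVL had a smaller share of called elements than ERVK and ERV1 and a larger one than ERVL-MaLR. In *E1E2 G9Gl*, *6KO1* and *6KO2*, 41.3%, 27.2% and 10.9% of ERVL elements were called higher. For ERVK, the family of the intracisternal A-particles, these shares were 71.9%, 62.6% and 46.7%. For ERV1 they were 62.9%, 59.0% and 45.7%, and for ERVL-MaLR, a group of non-autonomous elements that ERVL is thought to mobilise, 22.8%, 10.9% and 2.17%. These shares describe the families, and their difference was not tested.

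**Figure D2:**
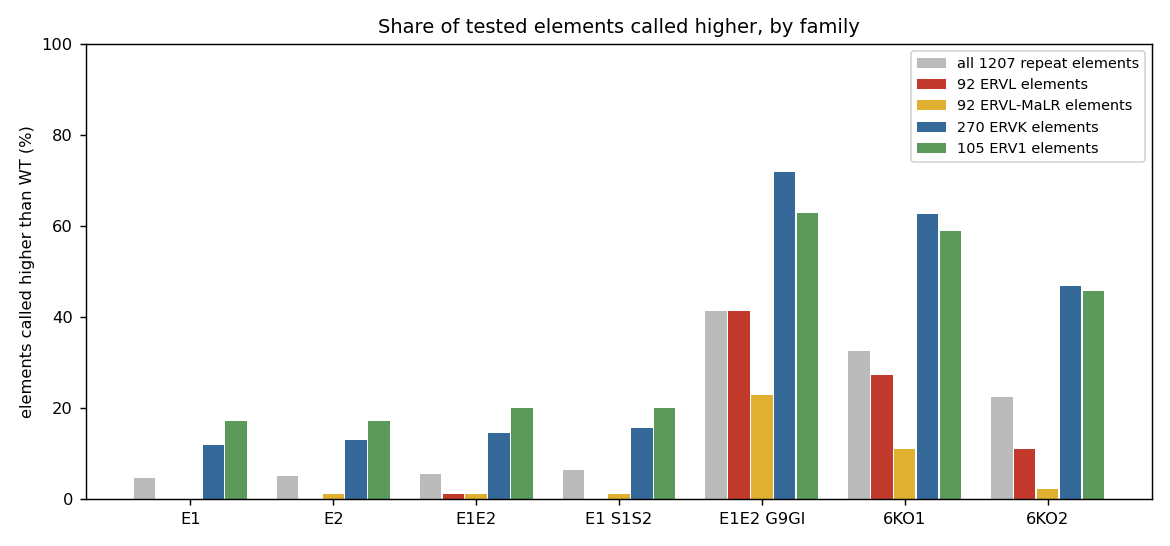
Percentage of tested elements called higher than WT (vertical axis, from 0 to 100) in each mutant condition, for all 1207 repeat elements, 92 ERVL, 92 ERVL-MaLR, 270 ERVK and 105 ERV1 elements. In the 3 conditions without G9a and Glp, ERVL lies above ERVL-MaLR and below ERVK and ERV1.

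MERVL-int, the internal region that encodes the viral proteins, rose in *E1E2 G9Gl* and *6KO1*. Its normalised counts were 4825, 3557 and 4547 in WT and 10237, 10001 and 10226 in *E1E2 G9Gl*. *6KO1* held 9550, 9528 and 9099, and *6KO2* held 6367, 7164 and 6968. All libraries of the 3 mutants lay above all WT libraries. The log2 fold changes were 1.24, 1.12 and 0.67 (SE about 0.11), with adjusted p of 1.28e-13, 2.93e-12 and 1.55e-06 in edgeR's quasi-likelihood test, and that in *6KO2* did not reach the 2-fold minimum. In *E1*, MERVL-int stood at 4319, 4991 and 3991, in *E2* at 4588, 4435 and 5204, in *E1E2* at 4775, 5186 and 4712 and in *E1 S1S2* at 4598, 5150 and 4835. Each of these lines overlapped WT and was not called.

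MERVL_2A-int, a related internal region, had smaller fold changes than MERVL-int. It was measured at 6190, 4385 and 6073 in WT and 8638, 8510 and 8802 in *E1E2 G9Gl*. *6KO1* held 9026, 8512 and 8382, and *6KO2* held 6113, 6555 and 6562. *E1E2 G9Gl* and *6KO1* lay above WT without overlap, whereas *6KO2* overlapped it. Log2 fold changes of 0.64, 0.64 and 0.21 were below the 2-fold minimum.

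MT2_Mm, the LTR of the youngest MERVL copies, stood at 2408, 1964 and 2454 in WT and at 4625, 4378 and 4384 in *E1E2 G9Gl*. *6KO1* held 4623, 4408 and 4186, and *6KO2* held 3296, 3480 and 3348. All 9 mutant libraries lay above WT, with log2 fold changes of 0.97, 0.95 and 0.57 that did not reach the 2-fold minimum. In *E1E2 G9Gl* it was just past that minimum, and called, with DESeq2, and without WT replicate 1 (1.01) or 3 (1.03), and in *6KO1* without WT replicate 3 (1.01). In the 4 lines with intact G9a and Glp, MT2_Mm ranged from 2180 to 2885.

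MT2A, a related LTR, rose in *E1E2 G9Gl* and *6KO1* (log2 fold change 1.02 and 1.01). Its values were 1545, 1100 and 1544 in WT and 2920, 2760 and 2796 in *E1E2 G9Gl*. In *6KO1* it was 2988, 2785 and 2664, and in *6KO2* 1965, 1977 and 2002, where the log2 fold change was 0.51. The mutant libraries did not overlap WT. MT2B1 was called only in *E1E2 G9Gl*, with a log2 fold change of 1.12, against 0.97 in *6KO1* and 0.62 in *6KO2*. Libraries held 2774, 1938 and 2603 in WT and 5549, 5148 and 5251 in *E1E2 G9Gl*. In *6KO1* they held 5059, 4663 and 4564, and in *6KO2* 3679, 3727 and 3799, again without overlap with WT.

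MT2C_Mm was also called only in *E1E2 G9Gl* (1.17 on the log2 scale, against 0.85 and 0.59 in *6KO1* and *6KO2*). Its counts were 1105, 706 and 982 in WT and 2270, 1960 and 2023 in *E1E2 G9Gl*. *6KO1* held 1804, 1598 and 1631, and *6KO2* held 1365, 1380 and 1442. MT2B2 had log2 fold changes of 0.55, 0.38 and 0.20, none past the fold minimum, and held 1733, 1182 and 1746 in WT against 2323, 2175 and 2311 in *E1E2 G9Gl*. MT2B, the MT2 element with the most counts, was not called in any mutant. It stood at 6178, 4381 and 5908 in WT and at 6480, 6224 and 6264 in *E1E2 G9Gl*. In *6KO1* it stood at 6393, 5543 and 5526, and in *6KO2* at 4851, 5279 and 4974, with log2 fold changes of 0.20, 0.08 and -0.12.

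As a group, 4, 2 and 0 of the 8 MERVL and MT2 elements were called higher in *E1E2 G9Gl*, *6KO1* and *6KO2*, against 34, 23 and 10 of the 84 remaining ERVL elements. Over all repeat elements, 41.3%, 32.6% and 22.5% were called higher in these lines. The 0 of 8 in *6KO2* stands beside 5 elements at an unadjusted p below 0.05 in edgeR (565 over all 1207 repeat elements) and 0 called by DESeq2, and the 4 in *E1E2 G9Gl* were joined by MT2_Mm in DESeq2. Without WT replicate 2, the log2 fold changes of MERVL-int became 1.11, 1.00 and 0.54, still called in the first pair, while MT2A (0.87 in *E1E2 G9Gl* and 0.86 in *6KO1*), MT2B1 (0.98) and MT2C_Mm (0.998) dropped below the 2-fold minimum, and the ERVL elements called higher went from 38 to 34, from 25 to 14 and from 10 to 3 in the same order of lines.

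**Figure D3:**
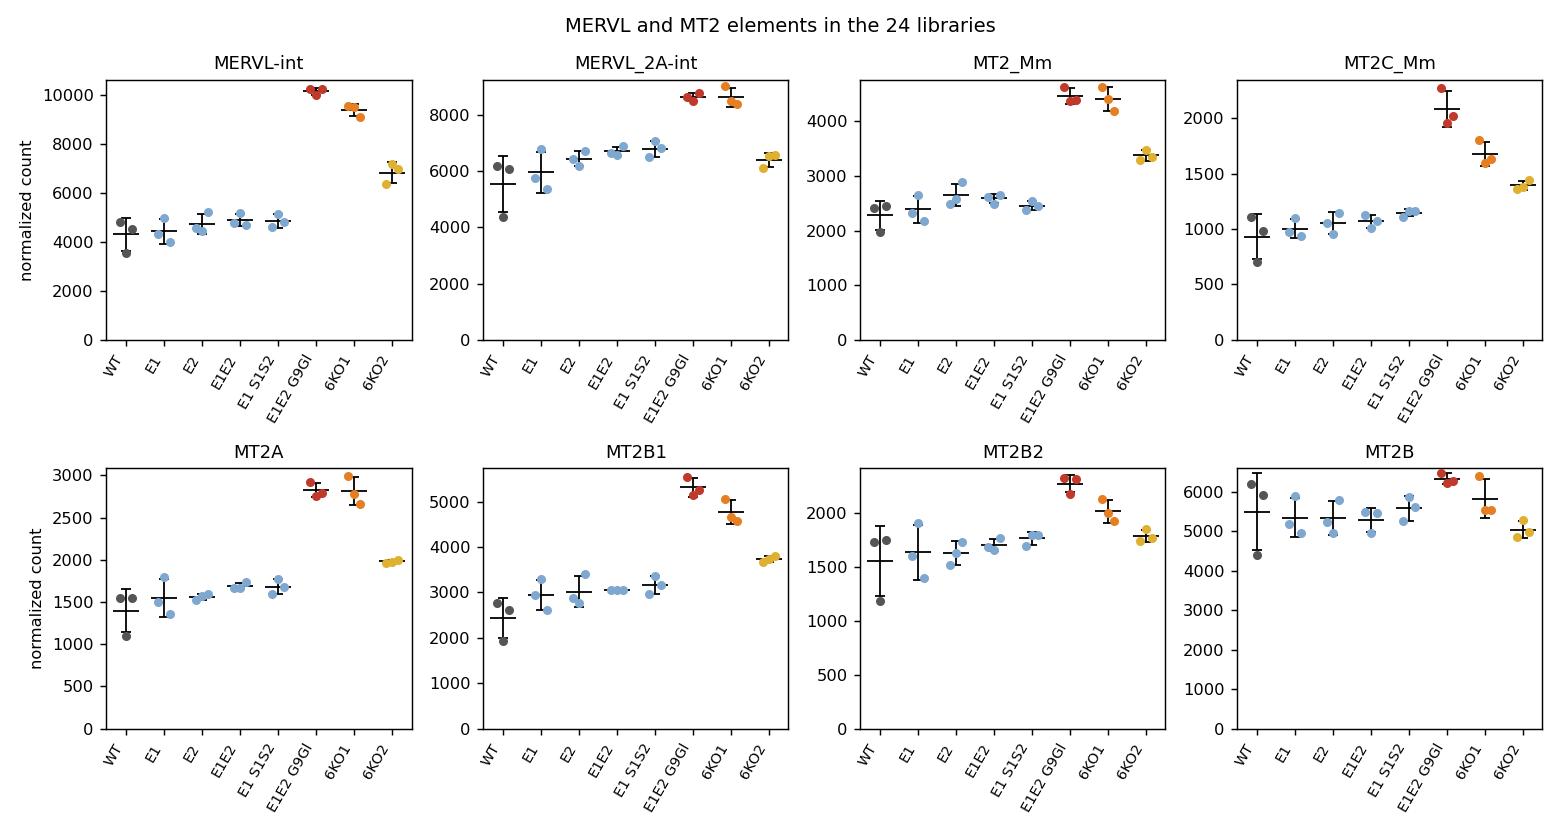
Normalised read counts (vertical axes) of the 8 MERVL and MT2 elements in the 24 libraries, by condition; points are libraries, the bar is the mean and the error bar the SD (n = 3). MERVL-int lies between 9099 and 10237 in *E1E2 G9Gl* and *6KO1* against 3557 to 4825 in WT, and MT2B stays within or near its WT range in all conditions.

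The sums gave the same order of conditions. The MERVL internal sum differed from WT by 0.93, 0.87 and 0.43 on the log2 scale in *E1E2 G9Gl*, *6KO1* and *6KO2* (adjusted p 1.02e-08, 3.69e-08 and 0.00149, edgeR on 66 family rows). For the MT2 sum the values were 0.73, 0.61 and 0.30 (adjusted p 8.22e-07, 1.76e-05 and 0.0254, edgeR), and for the remaining ERVL sum 0.95, 0.62 and 0.31 (1.03e-08, 1.58e-05 and 0.0194). None of these sums reached 2-fold. ERVL as a whole ranged from 30234 to 42490 normalised counts in WT and from 67236 to 70985 in *E1E2 G9Gl*. *6KO1* ranged from 58701 to 64362 and *6KO2* from 46746 to 48483.

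These differences depend on what the libraries are scaled to. With factors from the repeat rows alone, which set the changes relative to the repeat RNA of each library, MERVL-int was 0.40, 0.51 and 0.33 above WT on the log2 scale in *E1E2 G9Gl*, *6KO1* and *6KO2*. Under the same scaling MERVL_2A-int was at -0.19, 0.03 and -0.12, MT2B2 at -0.28, -0.23 and -0.12, MT2B at -0.63, -0.53 and -0.45, and the MT2 sum at -0.11 in *E1E2 G9Gl*, so that their direction turned in at least 1 line. Scaled to the SINE total, MERVL-int was at 1.16, 1.10 and 0.74, and MT2A at 0.94 in *E1E2 G9Gl* and 0.99 in *6KO1*, where it was no longer called.

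Ratios within a library are free of this choice. MERVL and MT2 together held 63.0% to 63.5% of ERVL counts in WT and 60.6% to 61.2% in *E1E2 G9Gl*. The share was 64.6% to 65.2% for *6KO1* and 62.8% to 64.8% for *6KO2*. The log2 ratio of MERVL and MT2 counts to the remaining ERVL counts was 0.766 to 0.802 in WT. It was 0.623 to 0.659 in *E1E2 G9Gl*, below every WT library by 0.14 on average, and 0.867 to 0.903 in *6KO1*, above every WT library by 0.10. Both 6KO lines lack the same 6 genes, yet *6KO2* (0.758 to 0.880) overlapped WT. With 3 libraries against 3, a two-sided exact permutation test cannot give less than 0.1, which was the value for *E1E2 G9Gl*, *6KO1* and *E1* (0.729 to 0.761), adjusted p 0.233 over 7 mutants.

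Within MERVL, the ratio of the internal regions differed more. The log2 ratio of MERVL_2A-int to MERVL-int was 0.302 to 0.417 in WT and -0.245 to -0.216 in *E1E2 G9Gl*. The 6KO lines gave -0.163 to -0.0814 (*6KO1*) and -0.128 to -0.0588 (*6KO2*). MERVL_2A-int thus had the larger count of the pair in each WT library and the smaller one in all 9 libraries without G9a and Glp. Mean differences from WT were -0.59, -0.48 and -0.45 (two-sided exact permutation p 0.1 each, the smallest possible, adjusted p 0.14 over 7 mutants). In *E1* (0.420 to 0.442) and *E1 S1S2* (0.456 to 0.502) the ratio lay above WT, and in *E2* and *E1E2* it overlapped WT. The MERVL internal sum was also higher relative to the MT2 sum, by 0.21, 0.26 and 0.13 on the log2 scale in *E1E2 G9Gl*, *6KO1* and *6KO2*, each above all WT libraries (two-sided exact permutation p 0.1, adjusted p 0.117). It lay above all WT libraries in *E2*, *E1E2* and *E1 S1S2* too, by 0.07, 0.11 and 0.08, with the same p. The ratios other than that of MERVL and MT2 to the remaining ERVL were chosen after their values were seen.

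**Figure D4:**
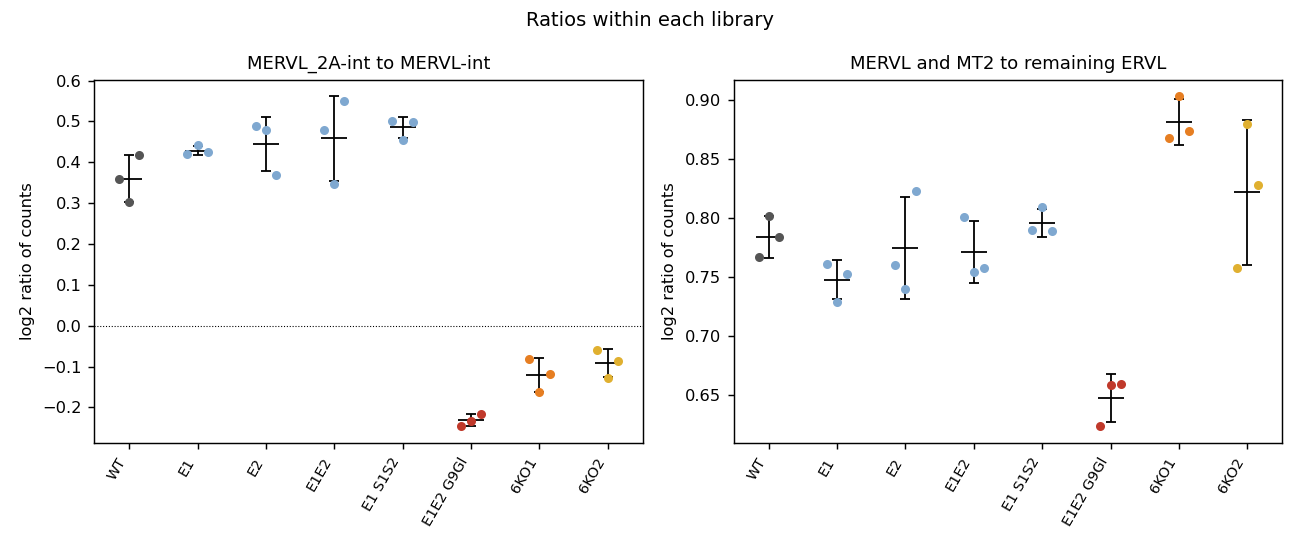
Log2 ratios of counts within each library (vertical axes), by condition; points are libraries, the bar is the mean and the error bar the SD (n = 3). MERVL_2A-int over MERVL-int lies between 0.302 and 0.417 in WT and below 0 in all 9 libraries of *E1E2 G9Gl*, *6KO1* and *6KO2*.

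Among the remaining ERVL elements, RMER15 had the most counts in WT. It held 3401, 2451 and 3300 normalised counts in WT and 6052, 5630 and 5840 in *E1E2 G9Gl*. Its log2 fold changes of 0.94, 0.70 and 0.38 in *E1E2 G9Gl*, *6KO1* and *6KO2* missed the 2-fold minimum. RMER15-int, its internal region, rose in *E1E2 G9Gl* from 1314, 880 and 1235 in WT to 3387, 3197 and 3381 (log2 fold change 1.54, adjusted p 3.35e-17, edgeR), with 0.91 and 0.60 in the 6KO lines. RMER10A (0.62, 0.61 and 0.19), RMER10B (0.46, 0.37 and 0.27) and MER21B (0.34, 0.13 and -0.06) were not called. Of the 35 tested elements with a mean normalised count above 100, 14, 7 and 1 were called higher in *E1E2 G9Gl*, *6KO1* and *6KO2*, and of the 57 below that mean 24, 18 and 9.

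9 remaining elements were called higher in all 3 of these lines: ERV3-16A3_LTR, HERV16-int, LTR102_Mam, LTR16B2, LTR33B, LTR79, LTR86A2, MER73 and RLTR35B_MM. Over all repeat elements, 41.3%, 32.6% and 22.5% were called higher line by line, against the same WT libraries. The share called in all 3 is not given here, so the 9 are a list and no trait of ERVL. RLTR35B_MM had 59.7, 43.8 and 53.2 normalised counts in WT and 272, 258 and 282 in *E1E2 G9Gl*. In *6KO1* it had 170, 169 and 149, and in *6KO2* 126, 91.5 and 106. The groups did not overlap, and the log2 fold changes were 2.38, 1.64 and 1.06. MER73 differed from it in order, with 18.1, 14.6 and 17.1 in WT and 115, 90.2 and 92.0 in *E1E2 G9Gl*. *6KO1* held 137, 99.2 and 106, and *6KO2* held 57.9, 81.2 and 75.1, with log2 fold changes of 2.58, 2.78 and 2.10. LTR79 (3.15, 3.54 and 2.06), ERV3-16A3_LTR (3.79, 2.02 and 1.68) and LTR16B2 (2.43, 1.46 and 1.60) rose from WT levels of 3.01, 6.02 and 21.1 normalised counts or less. HERV16-int (1.60, 1.64 and 1.16), LTR102_Mam (1.61, 1.97 and 1.20), LTR33B (1.68, 1.15 and 1.68) and LTR86A2 (2.04, 1.21 and 1.29) were the others. LTR16B2 and MER73 kept the call in all 3 lines on leaving out any single library, and each of the remaining ones lost it in at least 1 line. Without WT replicate 2, HERV16-int (0.96), RLTR35B_MM (0.94), LTR102_Mam (0.99), LTR86A2 (0.86), LTR79 (1.45) and ERV3-16A3_LTR (1.22) were not called in *6KO2*, and LTR33B (0.92) and LTR86A2 (0.78) were not called in *6KO1*. LTR102_Mam reached 0.86 in *6KO2* without WT replicate 3, and RLTR35B_MM 0.92 there without *6KO2* replicate 1.

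The other elements with large changes were called in 1 or 2 of the 3 lines. MLT2E had 1 count over the 3 WT libraries together and 75 in *E1E2 G9Gl*, a ratio of 88.6 after scaling with a 95% exact counting interval of 15.4 to 3547. In *6KO1* it had 14 counts (ratio 12.8, interval 1.95 to 542) and in *6KO2* 6 counts (ratio 6.62, interval 0.803 to 304), where it was not called. Outside *E1E2 G9Gl* no library held more than 5 counts of MLT2E, so it passed the count filter only through that line. Its call there is therefore no independent test. LTR82B held 17, 10 and 28.1 normalised counts in WT and 94.9, 101 and 82.9 in *E1E2 G9Gl* (log2 fold change 2.34), whereas *6KO1* (25.5, 20.9 and 18.6) overlapped WT. LTR16E1 was at 2.32, 1.02 and 0.85 on the log2 scale in the 3 lines, called in the first pair, and MER70-int at 2.76, 1.35 and 1.90, called in *E1E2 G9Gl* and *6KO2*. LTR75B fell in *E1E2 G9Gl* from 13.9, 12.8 and 15.1 to 2.16, 0 and 7.77 (log2 fold change -2.10, adjusted p 0.000537, edgeR), and was not called in *6KO1* (-0.35) or *6KO2* (-1.07). LTR75 moved alongside it, with 14.9, 10 and 9.03 in WT against 1.08, 5.78 and 1.30 in *E1E2 G9Gl* (-1.99). *6KO2* held 3.10, 2.29 and 3.31 (-1.90).

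By subgroup, 16, 10 and 6 of 41 LTR-numbered elements were called higher in *E1E2 G9Gl*, *6KO1* and *6KO2*. For MER elements the counts were 4, 4 and 1 of 16, for MLT2 5, 5 and 0 of 10, for other internal regions 7, 3 and 2 of 11, and for RMER and RLTR elements 2, 1 and 1 of 6. Over all repeat elements the shares were 41.3%, 32.6% and 22.5%. Differences of the subgroups from this background or from each other were not tested.

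Comparisons along the series asked what each further gene pair added. Deletion of Eset1 in the Eset2 clone (*E1E2* against *E2*) gave 0 ERVL calls in edgeR (background 0.414%), as in DESeq2, with 6 higher and 4 lower at an unadjusted p below 0.05 (98 and 52 over all 1207 repeat elements). Loss of Suv39h1 and Suv39h2 on top of Eset1 (*E1 S1S2* against *E1*) also gave 0 in both tools (background 1.49%), with 8 higher and 2 lower at an unadjusted p below 0.05 in edgeR (169 and 80 over all repeat elements). Loss of G9a and Glp on top of Eset1 and Eset2 (*E1E2 G9Gl* against *E1E2*) gave 27 of 92 higher (background 33.6%), MERVL-int among them at 1.05 on the log2 scale, and 1 lower (background 0.994%), LTR75 at -1.73, a call that was lost on leaving out *E1E2* replicate 1 or 3 or *E1E2 G9Gl* replicate 1 or 3. From *E1 S1S2* to *6KO1*, 9 elements were higher (background 23.7%) and LTR69 was lower at -1.05 (background 0.497%), while MERVL-int was 0.95 higher, short of the fold minimum. The call of LTR69 was lost without *E1 S1S2* replicate 2 or *6KO1* replicate 3. LTR16D1, LTR69, LTR75 and LTR83 are named because few elements were called there, and were chosen after their values were seen.

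The step from *E1E2 G9Gl* to *6KO2* ran downwards. Suv39h2, disrupted in this step, had fewer counts in *E1E2 G9Gl* (355 to 370) than in *6KO2* (475 to 556). The step gave 0 elements higher, also in DESeq2 and at an unadjusted p below 0.05 (68 over all 1207 repeat elements), and 14 of 92 lower (background 16.7%), and MERVL-int was 0.57 lower on the log2 scale in *6KO2*. For all 8 MERVL and MT2 elements the *6KO2* libraries lay below those of *E1E2 G9Gl*, none of them past 2-fold and 7 with an adjusted p of at most 0.01 in edgeR. Over all 1207 repeat elements, 802 lay below without overlap and 619 were lower at that adjusted p, so the fall was shared by many repeats. Between the lines with all 6 genes disrupted, LTR83 (1.19) and LTR79 (1.48) were called higher in *6KO1* than in *6KO2* (background 5.05%), and MERVL-int was 0.46 higher, which was not past the fold minimum. Without *6KO2* replicate 1 or 2, 1 and 0 elements were called.

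The cleavage-stage genes that accompany MERVL in 2-cell-like cells were then examined in the same libraries. Of a list of 26 such genes, 12 had enough counts to be tested, 13 did not, and Zscan4a was not analysed here. They include the Zscan4 cluster, zinc-finger genes tied to telomere maintenance, the zinc-finger gene Zfp352 and the Usp17l deubiquitinase cluster. Zscan4 and Usp17l copies are nearly identical, so the split of counts among them is uncertain. 10 of the 12 tested genes had a promoter sequence in RefSeq (assembly GRCm38.p6), taken from 250 bases before to 50 bases after the start.

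Promoter sequences of 3 of these genes are shown because their transcripts separated the conditions and because the Zscan4 copies hold near-identical sequence. Capitals mark matches to TGATTCAAT, a motif described for Dux (reverse complement ATTGAATCA), or to TATAAA (reverse complement TTTATA), searched on both strands and without overlap between them.
Zscan4c, chr7:11005495-11005794, plus strand: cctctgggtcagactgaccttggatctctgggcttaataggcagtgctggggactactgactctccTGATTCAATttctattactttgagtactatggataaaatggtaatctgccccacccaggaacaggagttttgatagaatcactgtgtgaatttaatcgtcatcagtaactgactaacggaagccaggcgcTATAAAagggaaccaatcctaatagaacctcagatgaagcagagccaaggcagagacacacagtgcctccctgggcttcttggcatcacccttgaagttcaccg
Zscan4d, chr7:11166099-11166398, minus strand: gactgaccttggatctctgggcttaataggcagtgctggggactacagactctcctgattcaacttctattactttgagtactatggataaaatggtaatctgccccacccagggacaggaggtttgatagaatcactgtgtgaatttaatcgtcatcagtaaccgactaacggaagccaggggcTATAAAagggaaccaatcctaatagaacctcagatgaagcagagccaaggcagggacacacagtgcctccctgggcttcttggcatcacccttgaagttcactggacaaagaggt
Zfp352, chr4:90218570-90218869, plus strand: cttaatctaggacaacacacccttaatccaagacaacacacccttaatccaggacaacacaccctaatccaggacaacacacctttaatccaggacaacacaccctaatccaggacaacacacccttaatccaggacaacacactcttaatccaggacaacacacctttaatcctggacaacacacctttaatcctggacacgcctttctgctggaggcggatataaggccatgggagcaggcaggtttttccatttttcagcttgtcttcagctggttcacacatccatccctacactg

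The first motif was found in 2 of the 10 promoters, those of Zscan4c and Zscan4f, against 37 of 32851 RefSeq promoters of the same length (0.113%). TATAAA was found in 7 of the 10, against 13.6% of all promoters. Zscan4c and Zscan4f matched at 275 of 277 aligned bases (99.3%) and Zscan4c and Zscan4d at 281 of 289 (97.2%), so the motif count does not come from independent sequences. Zfp352 held neither motif.

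Calls of the 2-cell genes fell partly in other lines than those of MERVL. All 12 tested genes were called higher than WT in *6KO1* and 10 in *6KO2*, where 20.6% and 15.3% of all 18565 tested genes were higher. The filter passes a gene with enough counts in the libraries of any 1 condition. Genes that are high in *6KO1* could thus enter the 12 through that line. The counts of this list, here and along the series, are therefore no test of it against the background. In *E1E2 G9Gl*, in which MERVL-int was highest on average, 2 were called, Usp17la and Usp17le (background 16.8%). In *E1 S1S2*, in which no MERVL or MT2 element was called, 8 were higher (background 6.65%), and in *E1E2* 5 (background 5.51%). *E1* and *E2* gave 0 calls in edgeR and in DESeq2 (backgrounds 2.27% and 2.9%), with 1 and 0 higher at an unadjusted p below 0.05 (2913 and 3927 over all 18565 genes). The count in *E1E2* went from 5 to 2 without WT replicate 2 or *E1E2* replicate 1 and to 3 without *E1E2* replicate 3, that in *E1 S1S2* from 8 to 5 without WT replicate 3, and that in *E1E2 G9Gl* from 2 to 1 without any single WT library or its replicate 2. The summed normalised counts of the list were 20.1 to 26.5 in WT, 29.6 to 40.4 in *E1*, 9.86 to 19.0 in *E2*, 105 to 125 in *E1E2*, 125 to 143 in *E1 S1S2* and 77.7 to 88.1 in *E1E2 G9Gl*. The 6KO lines reached 474 to 542 (*6KO1*) and 154 to 206 (*6KO2*). Most of the sum in *E1E2 G9Gl* was Usp17la, at 62.4 to 81.6. The median log2 fold change of the 12 tested genes against WT was -1.86 in that line.

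Zscan4c was measured at 2.13, 2.74 and 3.01 normalised counts in WT and at 1.08, 0 and 1.30 in *E1E2 G9Gl*. It reached 18.7, 3.32 and 10.3 in *E1E2*, 18.0, 19.9 and 17.1 in *E1 S1S2*, 50.1, 63.5 and 39.1 in *6KO1* and 16.5, 13.7 and 6.63 in *6KO2*. Log2 fold changes against WT were 2.01, 2.74, 4.21 and 2.18 in these 4 lines (adjusted p 0.00783, 0.000111, 7.91e-09 and 0.00239, edgeR). Zscan4f was lowest on average in *E1E2 G9Gl* and highest in *6KO1*, with 4.26, 3.65 and 3.01 in WT and 0, 1.16 and 0 in *E1E2 G9Gl*. *6KO1* held 50.1, 67.9 and 62.6, and *6KO2* held 22.8, 36.6 and 16.6.

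Zfp352 was at 0 in every *E1E2 G9Gl* library and had 34.3, 20.9 and 15.6 normalised counts in *6KO1* and 11.4, 12.6 and 7.73 in *6KO2*. Against a floor of 3 counts over the *E1E2 G9Gl* libraries, it was at least 20.1-fold higher in *6KO1* and at least 8.98-fold higher in *6KO2*. Usp17la ran differently from Zscan4c and Zfp352. It held 8.52, 5.48 and 2.01 in WT and 70.1, 62.4 and 81.6 in *E1E2 G9Gl*. In *6KO1* it rose to 130, 134 and 134, and in *6KO2* to 29.0, 42.3 and 29.8 (log2 fold changes 3.72, 4.62 and 2.64), so that it resembled MERVL in being lower in *6KO2* than in *E1E2 G9Gl*.

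The steps of the series gave these calls in the list. Between *E2* and *E1E2*, 7 genes of the list were called higher (background 2.32%) beside 0 ERVL elements. Between *E1* and *E1 S1S2*, 5 were higher (background 4.31%), again beside 0 ERVL elements. From *E1 S1S2* to *6KO1*, 10 were higher (6 with DESeq2, background 16.3%) beside 9 ERVL elements higher, and 7 were higher in *6KO1* than in *6KO2* (background 9.77%) beside 2 ERVL elements. From *E1E2* to *E1E2 G9Gl*, Usp17la was called higher (2.86 on the log2 scale, background 14.8%) and 8 genes lower (background 6.78%), beside 27 ERVL elements higher. From *E1E2 G9Gl* to *6KO2*, 10 genes were called higher (background 7.19%) and Usp17la lower at -1.08 (background 9.12%), beside 14 ERVL elements lower. The count of 8 became 5 without *E1E2* replicate 1 or *E1E2 G9Gl* replicate 2 and 4 without *E1E2 G9Gl* replicate 3, and the count of 10 became 6 without *E1E2 G9Gl* replicate 1 or 3. Usp17la was no longer called lower without *6KO2* replicate 1. These step comparisons were added for the list after its values were seen.

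**Figure D5:**
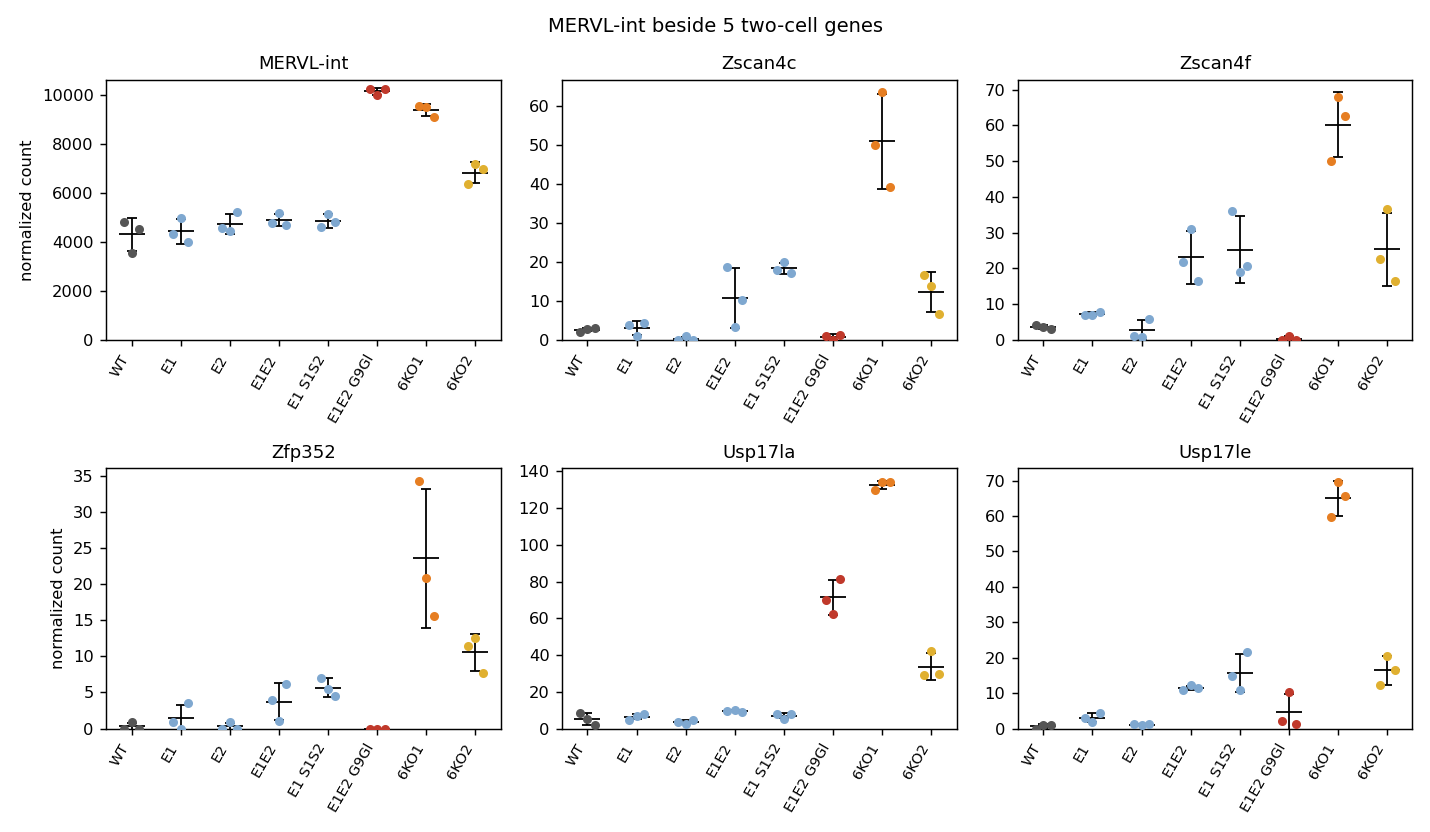
Normalised read counts (vertical axes) of MERVL-int and 5 of the 2-cell genes by condition; points are libraries, the bar is the mean and the error bar the SD (n = 3). Zscan4c, Zscan4f and Zfp352 are near 0 in *E1E2 G9Gl* and highest in *6KO1*, whereas Usp17la lies between 62.4 and 81.6 in *E1E2 G9Gl* against 2.01 to 8.52 in WT.

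Of 22 genes listed as regulators of MERVL, 21 were tested, and Zfp42 was at 0 in every library. Of the 21, only Atf7ip, Dppa2, Dppa4, Gata2 and Hdac2 were called in any mutant. In *E1E2 G9Gl*, *6KO1* and *6KO2*, 4.76%, 14.3% and 14.3% of the 21 were higher, against 16.8%, 20.6% and 15.3% of all genes. In *E1*, *E2*, *E1E2* and *E1 S1S2* it was 4.76% each, against 2.27%, 2.9%, 5.51% and 6.65%. Atf7ip, a partner that stabilises Eset1 in the nucleus, was called higher in all 7 mutants. It held 2008, 1457 and 1939 normalised counts in WT, 6143, 6280 and 5441 in *E1* and 5778, 5606 and 6176 in *E2*, and its log2 fold changes ranged from 1.57 in *E1 S1S2* to 2.11 in *6KO1*.

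Dppa2 and Dppa4, which act upstream of Dux in embryonic stem cells, were at 0 in WT, *E1*, *E2*, *E1E2* and *E1E2 G9Gl*. Dppa2 reached 40.4, 39.2 and 28.4 in *6KO1* and 13.4, 16 and 9.94 in *6KO2*, at least 36.2-fold and 13.2-fold above a floor of 3 counts over the WT libraries. For Dppa4 the counts were 72.1, 92.3 and 102 in *6KO1* and 14.5, 18.3 and 17.7 in *6KO2*, at least 89.2-fold and 16.9-fold above the floor. *E1 S1S2* held at most 1.81 counts of Dppa2 and 3.13 of Dppa4.

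Gata2, a haematopoietic transcription factor that has been linked to MERVL activation, fell in all 3 lines without G9a and Glp. It had 278, 210 and 249 normalised counts in WT and 11.9, 12.7 and 9.07 in *E1E2 G9Gl*. Values were 44.8, 18.3 and 42.1 in *6KO1*, and in *6KO2* 85.8, 76.6 and 108. Log2 fold changes were -4.42, -2.81 and -1.44, where 8.41%, 10.2% and 5.39% of all genes were called lower. Gata2 was also called lower in *E2* (-1.02, background 3.21%, lost without WT replicate 1 or *E2* replicate 3) and in *E1 S1S2* (-1.82, background 5.11%), in which MERVL was not called. Hdac2, a histone deacetylase, was called lower in *6KO1* alone (-1.14), with 4109, 5440 and 4573 in WT and 2101, 2143 and 2185 in *6KO1*.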

How the data were processed

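Total RNA was sequenced as stranded, rRNA-depleted paired-end libraries, 3 for each of 8 fibroblast conditions. The authors trimmed reads with cutadapt 1.8.1, aligned them to GRCm38 with STAR 2.5.2b and counted genes and repeats together with TEtranscripts, which shares multi-mapping reads among the copies of a repeat and reports sums per element name; the deposited values are raw counts, with 47937 gene rows and 1445 repeat rows. A row without a name (at most 0.00271% of counts) was left out. Counts of a repeat also include copies inside transcribed genes.

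Groups came from the sample titles. Library sizes and TMM factors were taken from the gene rows, as the authors scaled repeats by the genes. Elements passing filterByExpr were fitted in edgeR 4.0.16 (R 4.3.3) with 1 coefficient per condition over all 24 libraries, with Benjamini-Hochberg adjustment over 1207 repeat elements or 18565 genes. Elements were called where they differed 2-fold or more with an adjusted p not above 0.01. Family sums were tested in the same way on tables of 64 rows (ERVL whole) and 66 rows (ERVL split in 3). Within-library ratios were compared by two-sided exact permutation tests. The fits were tested on simulated counts. DESeq2 1.42.0, other scalings, filters and a replicate block were alternatives.

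Totals per library of at least 24736829 counts left 19 ERVL elements below the filter, and counting intervals and floors cover counting error only. Genes were named after the rule of the 5 highest, the 10 largest called changes and the elements called in all 3 lines without G9a and Glp, plus called members of the gene lists. The members, gene lists and markers were chosen with earlier results of these data known. Promoters came from RefSeq (GRCm38.p6). Repeat consensus sequences and genomic copies were not analysed here.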

Additional observations from a re-analysis of the deposited data

Results flagged for a closer look

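The steps at which Suv39h1 and Suv39h2 were disrupted differed from each other in MERVL. *6KO2* had a MERVL-int level 0.57 lower on the log2 scale than *E1E2 G9Gl*. *E1 S1S2* had one 0.13 higher than *E1*, with overlapping libraries and no call. Each line is 1 clone, so genotype and clone cannot be told apart, and Suv39h2 was already at 355 to 370 normalised counts in *E1E2 G9Gl* against 929 to 1095 in WT. The difference of these steps was tested as an interaction in edgeR and was -0.70 for MERVL-int (adjusted p 0.000202). For MERVL_2A-int it was -0.62, for MT2A -0.63, for MT2B1 -0.61, for MT2C_Mm -0.77 and for MT2_Mm -0.44. MT2B2 (-0.46, adjusted p 0.012) and MT2B (-0.39, adjusted p 0.0338) did not pass 0.01 in edgeR. The MERVL internal sum gave -0.67, the MT2 sum -0.52 and the remaining ERVL sum -0.71. Over all tested repeat elements 557 of 1207 passed, against 34 of 92 ERVL elements.

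Zscan4f moved in the other direction. It was 5.62 higher in *6KO2* than in *E1E2 G9Gl*, with 2 of the 3 libraries of the latter at 0, and 1.8 higher in *E1 S1S2* than in *E1*, a difference of 3.81 (adjusted p 0.00413, edgeR) and the 1 of 12 tested 2-cell genes that passed. For the effect of 4-OHT in the Eset2 clone against that in the WT clone, 0 of 92 ERVL elements, 75 of 1207 repeat elements and 0 of 12 genes of the list passed. The share of all tested genes that passed is not given here for either contrast, so both counts of 2-cell genes stand without a background. Conditions of 3 libraries were not screened for outliers.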

How the results depend on the processing

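Of 2316 values recomputed under alternatives, 2042 kept their direction and side of the threshold, 198 lost the call or fell in count, 45 gained and 31 changed sign. Scaling to the repeats alone made the largest change, as it removes the part of the change that all repeats share. Under it 0, 12, 6 and 4 ERVL elements were higher than WT and 1, 6, 2 and 2 lower in *E1E2*, *E1E2 G9Gl*, *6KO1* and *6KO2*. By step, 10 were higher and 3 lower in *E1E2 G9Gl* against *E1E2*, 4 higher and 2 lower in *6KO1* against *E1 S1S2*, 4 lower in *6KO2* against *E1E2 G9Gl* and 1 higher in *6KO1* against *6KO2*. In *E1E2 G9Gl* MERVL_2A-int went to -0.19, MT2B2 to -0.28, MT2B to -0.63, the MT2 sum to -0.11 and the ERVL total to 0.030. In *6KO1* MT2B2 went to -0.23, MT2B to -0.53, the MT2 sum to -0.0033 and the remaining sum to 0.013. In *6KO2* MERVL_2A-int went to -0.12, MT2B2 to -0.12, the MT2 sum to -0.030 and the remaining sum to -0.014. In *E1* the ERVL total went to -0.013, the MERVL internal sum to -0.028 and the MT2 sum to -0.026. The MT2 sum went to -0.0082 in *E2* and -0.011 in *E1E2*, and in *E1 S1S2* the ERVL total, MT2 and remaining sums went to -0.014, -0.042 and -0.021.

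Scaled to the SINE total, ERVL elements in *E1E2* were 0 higher and 1 lower, lower calls were 0 in *E1E2 G9Gl* against *E1E2*, 0 in *6KO1* against *E1 S1S2* and 9 in *6KO2* against *E1E2 G9Gl*, and sums passed an adjusted p of 0.01 at 0.079 (ERVL total, *E1*), 0.088 and 0.13 (ERVL total and MERVL internal, *E2*), 0.077 and 0.13 (*E1 S1S2*) and 0.42, 0.38 and 0.40 (ERVL total, MT2 and remaining, *6KO2*). Without a fold minimum, ERVL elements higher were 4 in *E1*, 2 in *E2*, 5 in *E1E2*, 4 in *E1 S1S2*, 63, 51 and 28 in *E1E2 G9Gl*, *6KO1* and *6KO2*, and 53, 35 and 23 in *E1E2 G9Gl* against *E1E2*, *6KO1* against *E1 S1S2* and *6KO1* against *6KO2*, and lower 1 in *E1*, 1 in *6KO1*, 2 in *6KO1* against *E1 S1S2* and 47 in *6KO2* against *E1E2 G9Gl*. With a mean count above 100 required, which tests fewer elements, the higher counts were 0, 14, 7 and 1 in *E1E2*, *E1E2 G9Gl*, *6KO1* and *6KO2*, 8, 2 and 0 in these steps, and the lower counts 0 apart from 4 in *6KO2* against *E1E2 G9Gl*.

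The 1 lower call in *E1E2 G9Gl* against *E1E2* became 0 with DESeq2, RLE factors, no filter, only the 6 libraries compared and the replicate block. DESeq2 gave 1 element higher in *6KO1* against *6KO2*, 1 gene of the 2-cell list in *E1E2 G9Gl* and 6 in *6KO1* against *E1 S1S2*, with no filter 8 were higher in *E1 S1S2* against *E1*, and DESeq2 gave 0.34 for the ERVL total in *6KO2*, past 0.01. With only 6 libraries the MERVL internal sum in *6KO2* (0.43) no longer passed. Without MERVL_2A-int the ratio of MERVL and MT2 to the remaining ERVL in *E1 S1S2* went to -0.019. The cause of these changes was not tested.

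Replicate numbers carried no label of a shared culture, and same-numbered libraries did not deviate together (correlation of deviations over repeats -0.309 to 0.252, and 12 of 24 libraries correlated best with their own number), so the replicate block is no pairing of samples. It changed no other ERVL count by over 1.5 times.

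Leaving out 1 library at a time, ERVL elements higher ranged from 0 to 1 in *E2*, 0 to 2 in *E1 S1S2*, 14 to 28 in *6KO1*, 3 to 12 in *6KO2* and 0 to 3 in *6KO1* against *6KO2*. Those lower ranged from 0 to 1 in *E1E2*, 1 to 2 in *E1E2 G9Gl* and 0 to 1 in *6KO2*, *E1E2 G9Gl* against *E1E2* and *6KO1* against *E1 S1S2*. In *E1* the ERVL total ranged from -0.047 to 0.18, the MERVL internal sum from -0.056 to 0.17, the MT2 sum from -0.059 to 0.17 and the remaining sum from -0.029 to 0.21. The MT2 sum ranged from -0.024 to 0.20 in *E2* and from -0.0090 to 0.22 in *E1E2*. In *6KO2* the ERVL total, MT2 and remaining sums ranged from 0.20 to 0.43, 0.16 to 0.38 and 0.17 to 0.41, and MT2B in *6KO1* from -0.056 to 0.18. Genes of the 2-cell list higher ranged from 2 to 5 in *E1E2*, 5 to 7 in *E1 S1S2*, 1 to 2 in *E1E2 G9Gl* and 6 to 9 in *6KO2* against *E1E2 G9Gl*, and those lower from 0 to 1 there and 4 to 7 in *E1E2 G9Gl* against *E1E2*. Regulators lower in *E2* ranged from 0 to 1, and the ratio in *E2* from -0.034 to 0.0075.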

Other observations

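Of the 13 genes of the 2-cell list that had too few counts to be tested, Duxf3, a copy of Dux, was singled out after its values were seen. It was at 0 in the 3 WT, 3 *E1* and 3 *E1E2 G9Gl* libraries, at 4.93, 0 and 1.03 normalised counts in *E1E2*, at 1.57, 0.906 and 0.899 in *E1 S1S2*, at 5.28, 3.48 and 4.89 in *6KO1* and at 5.17, 4.57 and 6.63 in *6KO2*. Its levels are near those of single reads, and no test was made. Tcstv1, a 2-cell embryo gene, was at 0 to 1.30 in *E1E2 G9Gl* and at 4.40, 10.4 and 9.78 in *6KO1*.

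The log2 ratio of MERVL-int to MT2_Mm counts within a library was 0.857 to 1.00 in WT, 1.15 to 1.22 in *E1E2 G9Gl* and 1.05 to 1.12 in *6KO1*, and overlapped WT in the other lines. The log2 ratio of all ERVL to all ERVL-MaLR counts was -2.25 to -2.21 in WT and -2.16 to -2.14 in *6KO1*, where it lay above WT by 0.08. It also lay above every WT library in *E1E2* and *E1E2 G9Gl*, by 0.034 and 0.028. For each of these differences without overlap a two-sided exact permutation test gave 0.1, the smallest value that 3 against 3 libraries allow (adjusted p 0.35 for the first ratio and 0.233 for the second, over 7 mutants).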
